A study of Mus musculus with 2 samples.

Results

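The genes described here are Il7, Il15, Flt3l, Csf1, Il34 and Thpo, 6 cytokine genes chosen by symbol. They are 6 of the 34144 genes in the list that both libraries share, each with 1 row. Interleukin 7 keeps B and T cell precursors alive, interleukin 15 does so for natural killer and memory T cells, and FLT3 ligand expands early lymphoid and dendritic progenitors. Colony-stimulating factor 1 and interleukin 34 are the 2 ligands of the receptor CSF1R, through which monocytes, macrophages and osteoclasts survive and mature. Thrombopoietin acts on blood stem cells and megakaryocytes and is made mainly in the liver. In the marrow, perivascular mesenchymal cells rich in CXCL12 (CAR cells) are known as a source of several of these proteins.

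The study placed 1 library of adult beside 1 library of old wild-type C57BL6 mice, all cells coming from long-bone marrow. Marrow was flushed out and broken up with enzymes (collagenase IV and dispase, with DNase), red cells were lysed, blood cells were depleted with magnetic beads, and live cells were sorted for 10x 3′ single-cell sequencing. The labels give age as a word only and do not say how many mice, or of which sex, went into a library. With 1 library per age there is no replicate and no test: every interval below is an exact 95% interval that covers counting error only, and a difference between the libraries compares those libraries.

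After filtering, 22403 adult and 18975 old cells remained, with a median of 7139 and 7736 UMIs. Each cell was placed in a class by its marker genes, none of which is one of the 6 cytokine genes, and a class name ends in "-like" for that reason. There were 13775 adult and 13338 old CAR-like cells. The adult and old numbers were 1948 and 630 for osteolineage-like (bone-forming) cells, 1317 and 295 for endothelial-like cells, 337 and 163 for pericyte or smooth muscle-like cells, 423 and 348 for megakaryocyte-like cells, and 142 and 832 for erythroid-like cells. Chondrocyte-like cells (171) were found in the adult library alone and plasma cell-like cells (1080) in the old library alone. Another 1750 adult and 85 old cells passed both the CAR and the osteolineage gate and form a group of their own. T or NK, B lineage, neutrophil lineage, monocyte and stem cell gates held under 50 cells in each library and give no levels. Of the barcodes, 152 occur in both libraries. Clusters drawn from the same cells, with no correction between libraries, separate the libraries. Clusters 0, 3 and 5 held 95.3% of the adult cells in CAR-like clusters, whereas 96.5% of such old cells fell in clusters 1, 2, 7, 9, 12 and 13. Age and library cannot be told apart in this split.

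CAR-like cells were 61.5% of the adult and 70.3% of the old cells, and they held a larger share than that of the Il7, Csf1, Il15 and Il34 UMIs. They gave 85.2% of the adult and 90.5% of the old Il7 UMIs, 79.4% and 85.8% for Csf1, 83.9% and 91.2% for Il34, 80.7% and 76.3% for Il15, 73.2% and 72.4% for Flt3l, and 62.5% and 66.1% for Thpo. The old Flt3l share and both Thpo shares are near the share of cells. The share of cells is not the share of RNA, since classes differ in depth. CAR-like cells held 114060052 adult and 112145755 old UMIs, where all barcodes before filtering held 208637421 and 229917243. Old plasma cell-like cells held 40995343 UMIs and old erythroid-like cells 39719999. The CAR-like share of RNA was thus lower than the share of cells, and the old Flt3l share lay well above that share of RNA. Old median depths were 7616 UMIs in CAR-like, 35936 in plasma cell-like and 55576 in erythroid-like cells. Markers of bone-forming cells summed to 9687 CPM (adult) and 5692 CPM (old) in CAR-like cells, with 0 of 9 markers under 1 CPM, and plasma cell markers to 9.45 and 53.3 CPM. All 7 T or NK markers were under 1 CPM in both libraries. The part of these in the values below was not tested. Within CAR-like cells Il7 and Il15 were lower in the old library, Il34 was slightly higher and Csf1 was almost level. Levels are given as CPM, UMIs of the gene per 1000000 UMIs of the class, and are compared for 1 gene between classes or libraries, never between genes.

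**Figure D1:**
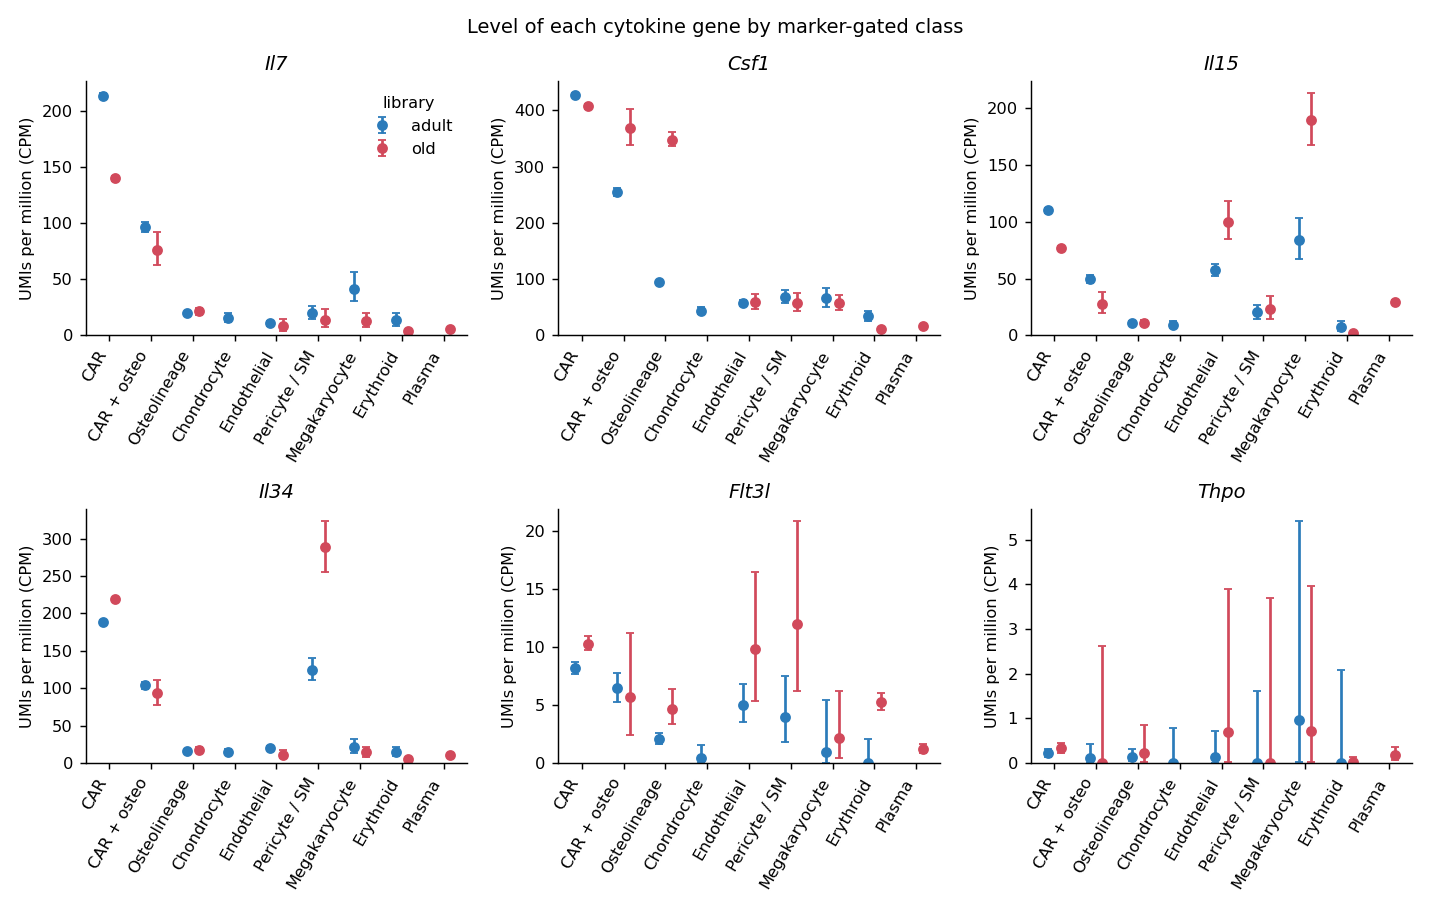
UMIs per 1000000 UMIs (CPM) of the 6 genes in each class of at least 50 cells, in the adult (blue) and old (red) library; bars are 95% counting intervals and the scale differs between panels. Il7 and Csf1 are highest in CAR-like cells of both libraries, Il34 is highest in CAR-like cells of the adult and pericyte-like cells of the old library, and the panels of Flt3l and Thpo rest on few UMIs.

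Il7 (ENSMUSG00000040329) was at 213 CPM in adult CAR-like cells (24323 UMIs, 211 to 216) and at 140 CPM in old ones (15692 UMIs, 138 to 142). The log2 ratio of old over adult was −0.61 (−0.64 to −0.58), so the adult level was 1.52-fold the old one. With every cell thinned to 4000 UMIs, 51.8% of the adult CAR-like cells and 36.4% of the old ones had an Il7 UMI, against 66.8% and 51.2% at the cells' own depth. Erythroid-like cells, which are not known to make this cytokine, had it in 3.81% and 1.26% of cells at the same thinned depth (median depths before thinning 7865 and 55576 UMIs, against 7446 and 7616 in CAR-like cells). Of the tested genes in CAR-like cells, 5.02% had a lower ratio than Il7 and 6.89% a lower one than Il15. Il7 in every other single class was far lower: 19.6 and 21.4 CPM in osteolineage-like cells, 19.7 and 14.0 CPM in pericyte-like cells, 10.7 and 8.41 CPM in endothelial-like cells and 13.6 and 3.88 CPM in erythroid-like cells. In the adult library the intervals of the osteolineage-like, pericyte-like and endothelial-like levels overlap that of erythroid-like cells (8.68 to 20.2). In the old library the osteolineage-like (18.4 to 24.8) and pericyte-like intervals (7.65 to 23.5) lie above the erythroid-like one (3.29 to 4.54). These levels were not adjusted for the greater depth of old erythroid-like cells. Il7 in megakaryocyte-like cells was at 41.8 CPM from 43 adult UMIs and 12.8 CPM from 18 old ones. Those with little CAR marker RNA (CAR score under 1) had 12.1 CPM (6 adult UMIs) and 14.4 CPM (14 old UMIs). Those with a CAR score of 1 or more had 69.6 CPM (37 adult UMIs) and 9.29 CPM (4 old UMIs). Cells past both the CAR and the osteolineage gate lay between, at 96.6 CPM (adult) and 76.3 CPM (old).

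An unnamed transcript, Gm16685, lies opposite Il7 and overlaps it in the GENCODE M21 annotation of the earlier mouse build. In CAR-like cells Gm16685 had 333 CPM (adult) and 485 CPM (old), higher in the old library by log2 0.54 (0.52 to 0.56), the other direction from Il7. No source used here says whether the counts used strand, so reads of Il7 and Gm16685 may not be fully told apart. In osteolineage-like cells Gm16685 had 25.4 and 76.2 CPM.

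Il15 (ENSMUSG00000031712) was at 110 CPM in adult CAR-like cells (12516 UMIs, 108 to 112) and 76.8 CPM in old ones (8608 UMIs, 75.1 to 78.4), a log2 ratio of −0.52 (−0.56 to −0.48). The thinned share of CAR-like cells with an Il15 UMI was 31.2% (adult) and 22.2% (old), and 1.90% and 0.755% in erythroid-like cells. In endothelial-like and megakaryocyte-like cells the old level was instead the higher one. Adult endothelial-like cells had 57.3 CPM (449 UMIs, 52.1 to 62.9) and old ones 100 CPM (143 UMIs, 84.5 to 118), higher in old by log2 0.81 (0.52 to 1.08). The split of endothelial-like cells by vessel markers gave 62.0 and 104 CPM in cells with the higher sinusoidal score and 44.3 and 98.8 CPM in cells with the higher arterial score, so the old value was the larger one in each. Endothelial-like cells with little CAR marker RNA (CAR score under 1) had 57.7 and 94.8 CPM. With each cell weighted alike the endothelial log2 ratio was 0.51, and with cells named by clustering it was 0.27.

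Adult megakaryocyte-like cells had 83.6 CPM of Il15 (86 UMIs, 66.9 to 103) and old ones 189 CPM (265 UMIs, 167 to 213), a log2 ratio of 1.18 (0.82 to 1.55). Most cells of this class were of low complexity, with medians of 659 (adult) and 736 (old) genes. Under 1000 genes lay 355 of the 423 adult and 243 of the 348 old cells. Of the 265 old UMIs, 180 were in 10 cells among the deepest 10% of their library, at 487 CPM, and without the deepest cells both libraries were at 82.3 CPM. Split by genes detected, the old level was the higher one on each side: 48.1 and 93.3 CPM in cells under 1000 genes (27 and 36 UMIs; log2 0.95, 0.19 to 1.73) and 126 and 225 CPM in the others (0.84, 0.42 to 1.28). The latter side includes the 10 deep old cells, so it is not a view apart from them. In cells of 4000 to 12000 UMIs the log2 ratio was −2.76, the other direction. In the old library, plasma cell-like cells, which secrete antibody, had Il15 at 29.7 CPM (1216 UMIs, 28.0 to 31.4), against 2.24 CPM in old erythroid-like cells of greater median depth. Plasma cell-like cells with a CAR score under 1 had 29.0 CPM of Il15. There were no adult plasma cell-like cells to compare. Osteolineage-like cells (11.1 and 10.8 CPM) and pericyte-like cells (20.2 and 23.0 CPM) had lower levels.

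Flt3l (ENSMUSG00000110206) gave few UMIs: 932 in adult CAR-like cells (8.17 CPM, 7.65 to 8.71) and 1160 in old ones (10.3 CPM). It was higher in the old library by log2 0.34 (0.21 to 0.47), below the level at which a gene was tested for a 2-fold call. The thinned share of CAR-like cells with a Flt3l UMI was 3.17% (adult) and 4.03% (old). Endothelial-like cells had 4.98 and 9.81 CPM, and pericyte-like cells had 9 and 12 UMIs (3.94 and 12 CPM). In the old library the intervals of these 2 classes overlap that of CAR-like cells, so the classes cannot be ordered there. Old erythroid-like cells had 211 Flt3l UMIs (5.31 CPM), 207 of them (98.1%) in the 551 cells, of 832, among the deepest 10% of their library. These 551 cells held 93.5% of all UMIs of the class, so their share of Flt3l was near their share of RNA. Adult erythroid-like cells had 0 Flt3l UMIs, which at a floor of 3 UMIs over the class allows 1.69 CPM. The other old erythroid-like cells, with the few remaining Flt3l UMIs, were at 1.55 CPM, below that floor. Different clusters hold these cells: cluster 17 has 20 adult and 558 old cells (5.69 CPM of Flt3l in old), and cluster 21 has 124 adult and 228 old cells (0 adult UMIs, and 4 old ones, 1.70 CPM). No fold between the libraries is drawn from them, since their median depths were 7865 and 55576 UMIs. Flt3l overlaps a readthrough transcript on its own strand (Gm45713) in the earlier annotation, so its counts are uncertain.

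Csf1 (ENSMUSG00000014599) had a level of 427 CPM in adult CAR-like cells (48739 UMIs, 424 to 431) and of 407 CPM in old ones (45633 UMIs, 403 to 411). The log2 ratio was −0.07 (−0.09 to −0.05) and became 0.01 when cells past both the CAR and the osteolineage gate were counted as CAR-like, so its direction is not settled. Thinned shares of CAR-like cells with a Csf1 UMI were 75.1% and 70.5%, beside 6.67% and 3.77% of erythroid-like cells. In the bone-forming class the libraries were far apart. Adult osteolineage-like cells had 94.3 CPM (3386 UMIs, 91.1 to 97.5) and old ones 348 CPM (2970 UMIs, 336 to 361), 3.69-fold higher (log2 1.88, 1.81 to 1.96). Their thinned share with Csf1 was 31.3% (adult) and 66.3% (old).

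The osteolineage-like cells of the libraries fell mostly in different clusters, and the gap in Csf1 was smaller within a cluster. Cluster 10, led by Bglap (osteocalcin, a marker of mature osteoblasts) and Col1a2, held 51.4% of the adult and 10.5% of the old cells of this class, while cluster 15, led by Spp1 (osteopontin), Postn and Col25a1, held 4.26% and 81.7%. Csf1 was at 40.5 CPM (1002 adult cells) and 57.5 CPM (66 old cells) in cluster 10, a log2 ratio of 0.51 (0.18 to 0.82). In cluster 15 it was at 308 CPM (83 adult cells) and 418 CPM (515 old cells), a log2 ratio of 0.44 (0.29 to 0.60). Csf1 was therefore several times higher in cluster 15 than in cluster 10 at either age, and less than 2-fold higher in old cells within each of these 2 clusters. Other adult cells of the class lay between: cluster 8, also led by Col1a1 and Bglap, held 270 adult cells (13.9%) and 0 old ones, at 136 CPM. Cluster 4, led by Hs3st5 and Wif1, held 462 adult cells (23.7%) at 285 CPM and 7 old cells at 450 CPM, a log2 ratio of 0.66 (−0.25 to 1.44). This look within clusters was added after the values were seen, and Csf1 was not kept out of the genes that could draw the clusters.

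A coarser split by markers left a larger gap. Cells with more Bglap than Spp1 UMIs (1347 adult, 114 old) had 63.3 and 132 CPM of Csf1, a log2 ratio of 1.06, and cells with more Spp1 than Bglap UMIs (585 and 513) had 180 and 410 CPM, a log2 ratio of 1.19 (1.10 to 1.27). In cells with a CAR score under 1 (929 adult, 245 old) the gap was wider than in the whole class. They had 36.5 and 258 CPM, a log2 ratio of 2.83 (2.69 to 2.96). Cells with a CAR score of 1 or more had 193 and 426 CPM (1.14, 1.06 to 1.23). Depth differed as well: 881 of the 1948 adult cells were among the deepest 10% of their library, at 63.0 CPM, against 83 of the 630 old cells, at 204 CPM. The other cells had 199 and 408 CPM (log2 1.04). With cells named by clustering alone the log2 ratio was 0.76, but over a different set of cells. The clusters named osteolineage held 2429 cells of the osteolineage gate, 1609 past both gates and 1428 of the CAR gate. Elsewhere Csf1 was lower: 57.6 and 58.9 CPM in endothelial-like, 68.4 and 58.0 CPM in pericyte-like and 66.1 and 57.1 CPM in megakaryocyte-like cells, against 34.4 and 11.9 CPM in erythroid-like cells.

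Of the 6 genes, RefSeq promoter entries (GRCm38.p6) were found for Csf1, Flt3l and Thpo, and that of Csf1 is shown because, of the 6 genes, Csf1 had the largest ratio past 2-fold between the libraries, in osteolineage-like cells. It spans chr3:107760420-107760719 on the minus strand, from 250 bases before to 50 bases after the start of the gene, and is given 5′ to 3′ with motif matches in capitals.
Csf1 promoter: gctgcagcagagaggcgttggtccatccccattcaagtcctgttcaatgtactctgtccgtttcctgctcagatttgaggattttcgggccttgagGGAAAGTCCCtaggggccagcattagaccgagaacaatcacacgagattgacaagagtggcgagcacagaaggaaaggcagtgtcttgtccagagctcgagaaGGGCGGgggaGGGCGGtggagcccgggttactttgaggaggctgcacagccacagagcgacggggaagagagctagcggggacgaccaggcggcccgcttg
The capitals mark, in order, an NF-kappa-B consensus match at −154 on the reverse strand (GGAAAGTCCC) and GC boxes (GGGCGG) at −51 and −41, counted from the start site to the first base of the match. No match overlaps another. Searched on both strands, the NF-kappa-B consensus is in 8.46% and the GC box in 35.7% of the 32851 promoters of the same length. The TATA box (TATAAA), AP-1 site (TGANTCA), and CCAAT box (CCAAT), in 13.6%, 7.81% and 37.4% of promoters, have no match in this window. The matches are letters in a sequence and were not related to any binding data here.

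Il34 (ENSMUSG00000031750), the second ligand of CSF1R, had 188 CPM in adult CAR-like cells (21476 UMIs, 186 to 191) and 219 CPM in old ones (24514 UMIs, 216 to 221), a log2 ratio of 0.22 (0.19 to 0.24). Thinned shares with an Il34 UMI were 48.2% and 50.3%, beside 8.57% and 2.64% of erythroid-like cells. Pericyte or smooth muscle-like cells, which wrap the vessels, were the other class with a high level. The adult ones had 125 CPM (286 UMIs, 111 to 141) and the old ones 289 CPM (289 UMIs, 256 to 324), higher in old by log2 1.20 (0.96 to 1.45). At equal depth 36.5% of the adult and 62.4% of the old pericyte-like cells had an Il34 UMI. Pericyte-like cells with a CAR score under 1 had 140 and 308 CPM, a log2 ratio of 1.14 (0.77 to 1.50). In the adult library the pericyte-like level was below that of CAR-like cells, and in the old library it was above, with intervals apart in both. Endothelial-like cells (157 adult and 16 old UMIs, the latter 11.2 CPM) and osteolineage-like cells (16.0 and 18.2 CPM) had much lower levels. Erythroid-like cells had 14.7 and 6.14 CPM, so the osteolineage-like level overlapped it in the adult library and lay above it in the old one (15.4 to 21.3 against 5.40 to 6.96). Old erythroid-like cells were far deeper (median 55576 UMIs, against 11486 in old osteolineage-like cells), and the levels were not adjusted for depth. Antisense transcripts that overlap Il34 held at most 2.69 CPM in CAR-like cells.

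Thpo (ENSMUSG00000022847) was barely detected. All adult cells together held 40 UMIs and all old cells 56, of which CAR-like cells had 25 and 37 (0.219 and 0.330 CPM). The interval of the CAR-like log2 ratio (−0.18 to 1.38) includes 0. Osteolineage-like cells held 5 and 2 Thpo UMIs and megakaryocyte-like cells 1 and 1, so no order of classes can be read.

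**Figure D2:**
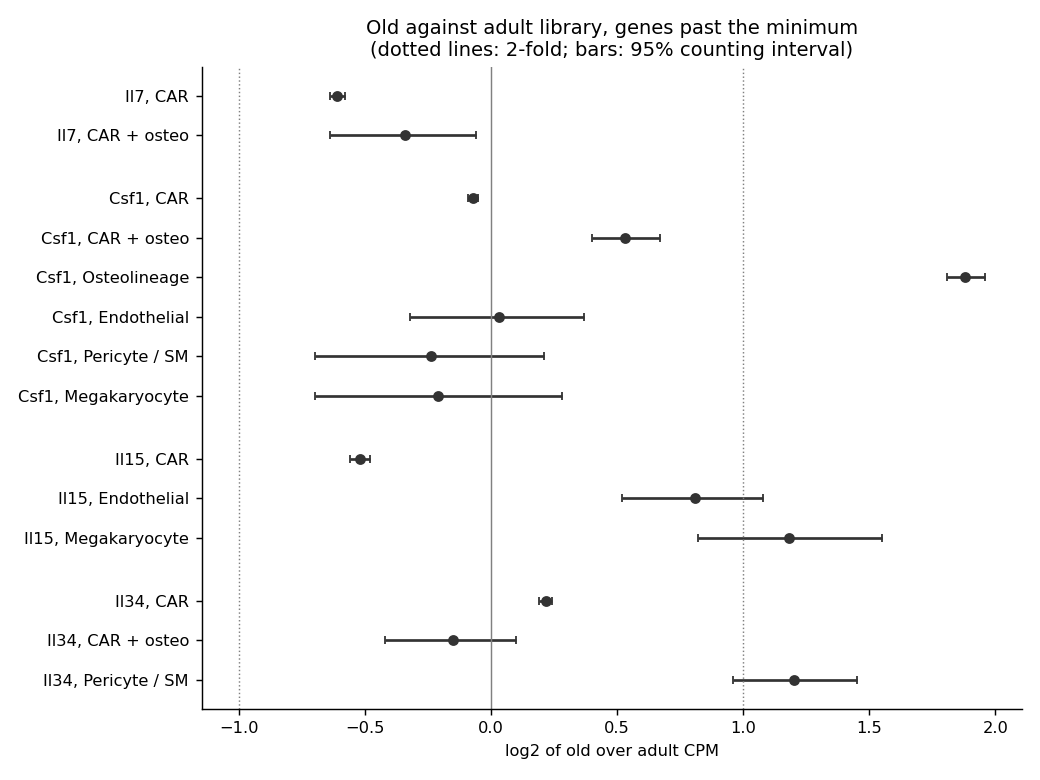
log2 of old over adult CPM for each gene and class whose higher library has no fewer than 50 CPM and 50 UMIs; bars are 95% counting intervals and dotted lines mark 2-fold. Csf1 in osteolineage-like cells (1.88), Il34 in pericyte-like cells (1.20) and Il15 in megakaryocyte-like cells (1.18) lie past 2-fold, and every CAR-like value lies within it.

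A difference was called at 2-fold, among genes whose higher library showed no fewer than 50 CPM and 50 UMIs. Il7, Il15, Csf1 and Il34 met this in CAR-like cells and 0 of these 4 differed 2-fold, beside 4.40% of all 4181 genes tested there (2.75% higher and 1.65% lower in old). Their median log2 ratio was −0.30, against 0.01 for all genes tested. Csf1 was the 1 of the 6 genes tested in osteolineage-like cells and was past 2-fold, as were 15.3% of all genes there (11.1% higher in old). Of the 3 tested in cells past both the CAR and the osteolineage gate (Il7, Csf1 and Il34), 0 were past 2-fold (9.77% of all genes in either direction). In pericyte-like cells Il34 was 2-fold higher and Csf1 was not (4.98% of all genes higher). In megakaryocyte-like cells Il15 was 2-fold higher and Csf1 was not (14.5% of all genes higher). Csf1 and Il15 were tested in endothelial-like cells and neither differed 2-fold (10.7% of all genes in either direction), and 0 of the 6 genes reached the minimum in erythroid-like cells.

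**Figure D3:**
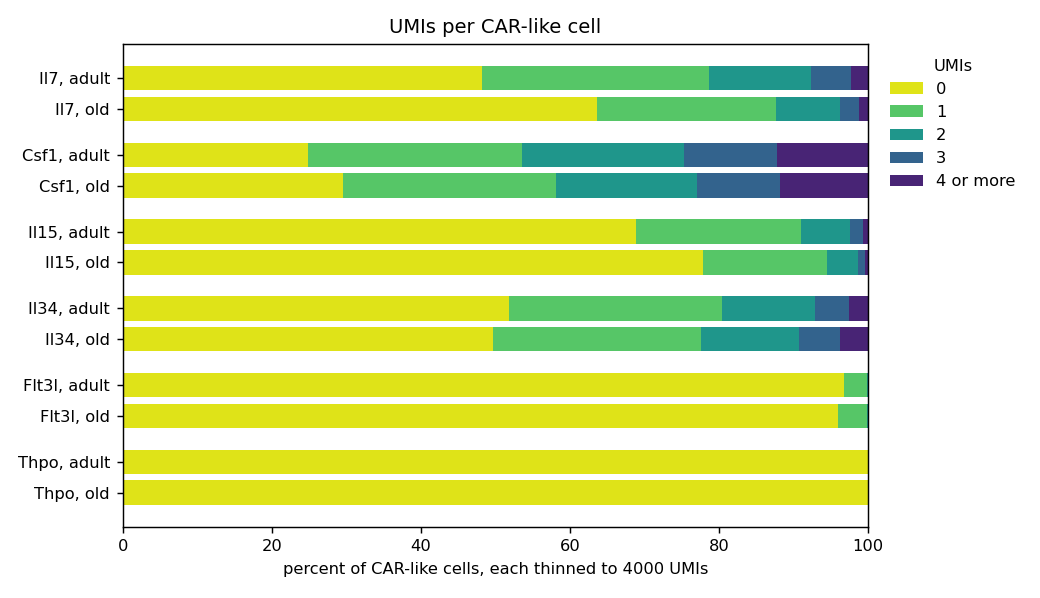
Share of CAR-like cells with 0, 1, 2, 3 or 4 and more UMIs of each gene, after every cell was thinned to 4000 UMIs (11454 adult and 11298 old cells of at least that depth). The share of cells without Il7 is 48.2% (adult) and 63.6% (old), and cells without Flt3l make up 96.8% and 96.0%.

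After thinning, smaller shares of the old than of the adult CAR-like cells had 1, 2, 3 or 4 and more Il7 UMIs. Such counts cannot tell a lower level in all cells from one in some of them. Of the adult cells 13.6% and of the old ones 8.60% had 2 Il7 UMIs, and 2.39% and 1.22% had 4 or more. The mean was 0.843 and 0.541 Il7 UMIs per thinned cell, and the variance over the mean was 1.31 and 1.41, where counting alone would give about 1. For Csf1, 12.3% and 11.8% of cells had 4 or more UMIs, and the highest count in a cell was 42 and 59.

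Il7, Csf1, Il15 and Il34 were detected together about as often as their separate shares would give. The share of thinned CAR-like cells with a pair of them ranged from 0.988 to 1.05 times (adult) and from 1.03 to 1.12 times (old) the product of the separate shares. Il7 with Il15 was the pair farthest above the product in the old library, in 9.01% of cells against 8.07%. All 4 genes were found in 6.26% (adult) and 3.86% (old) of cells, and 0 of the 4 in 4.94% and 9.25%.

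Il34 went with Cxcl12, which encodes the chemokine that names CAR cells and is a gate marker. CAR-like cells of each library were ranked by Cxcl12 CPM and cut into 4 bins of equal size. From the lowest to the highest bin, Il34 was at 131, 175, 207 and 238 CPM (adult) and at 153, 190, 247 and 292 CPM (old). Il7 moved from 189 to 230 CPM across the same adult bins and from 96.5 to 167 CPM across the old ones. Csf1 moved from 389 to 450 CPM and from 299 to 477 CPM. Il15 had no such order, with 112, 112, 108 and 107 CPM (adult) and 71.0, 79.5, 80.6 and 74.2 CPM (old). Median depth per bin ran from 6134 to 8284 UMIs (adult) and from 6644 to 8684 UMIs (old) and was lower in both outer bins than in the middle ones.

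Within CAR-like cells the 4 measurable genes followed different subsets. Subsets were cut by the highest 10% of a marker score over the CAR-like cells of both libraries, so they are ranges and not types, and a cell may be in several. Their sizes differ widely between the libraries: the C3 Saa3 subset (complement and acute phase genes) held 50 adult and 2609 old cells, the Grm7 Efemp1 subset 26 and 2666, the Cxcl13 subset 88 and 1100, the Wif1 Alpl Hs3st5 subset (osteogenic genes) 1701 and 921, the Fgf13 Rspo3 subset 2322 and 338, and the interferon subset 905 and 1695.

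Il7 was lowest in the C3 Saa3 subset and highest in the Fgf13 Rspo3 and Cxcl13 subsets. Old C3 Saa3 cells had 81.7 CPM against 154 CPM in the other old CAR-like cells (log2 −0.91, −0.99 to −0.84), and the 50 adult ones had 84.6 CPM against 214 CPM from 31 UMIs. Old Fgf13 Rspo3 cells had 236 CPM against 137 CPM (0.79, 0.68 to 0.89) and adult ones 250 CPM against 204 CPM. Old Cxcl13 cells had 199 CPM against 132 CPM (0.59, 0.53 to 0.65), and old Wif1 Alpl Hs3st5 cells 194 CPM against 135 CPM (adult 236 against 209 CPM).

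Il34 and Il15 were low where the osteogenic genes were high. In Wif1 Alpl Hs3st5 cells Il34 had 108 CPM (adult) and 98.2 CPM (old), against 203 and 229 CPM in the other CAR-like cells (log2 −0.91 and −1.22). Il15 was at 80.4 and 42.1 CPM in these cells against 115 and 79.7 CPM. Il34 was also low in Kit-positive cells, with 96.9 CPM in 93 adult cells and 118 CPM in 484 old ones. Old Grm7 Efemp1 cells had more Il34 than the other old CAR-like cells, 292 against 198 CPM (0.56, 0.52 to 0.60), and more Il15, 94.6 against 71.7 CPM.

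The interferon subset had more Il15 in the old library, 101 against 72.9 CPM (log2 0.48, 0.40 to 0.56), while in the adult library it had 114 against 109 CPM (0.06, −0.04 to 0.16). Il34 in the same old cells was at 280 against 209 CPM, Csf1 at 489 against 394 CPM and Il7 at 162 against 136 CPM, so all 4 genes were higher there. Csf1 was otherwise highest in old Fgf13 Rspo3 (556 CPM) and Cxcl13 cells (502 CPM) and was low in old C3 Saa3 cells (323 against 427 CPM). In the 50 adult C3 Saa3 cells Csf1 was instead above the other CAR-like cells (603 against 427 CPM).

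**Figure D4:**
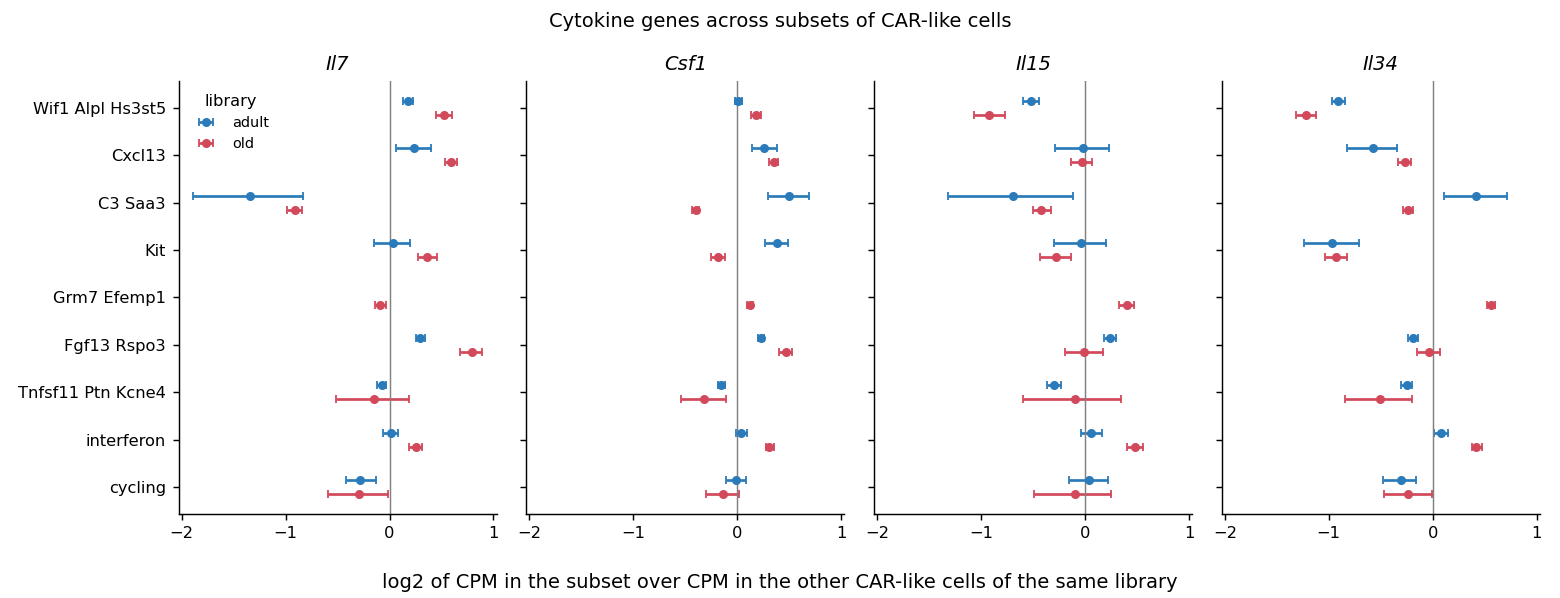
log2 of CPM in each subset over CPM in the other CAR-like cells of the same library, for 4 genes, adult in blue and old in red; bars are 95% counting intervals, and the adult Grm7 Efemp1 subset (26 cells) is left out. Il7 lies lowest in the C3 Saa3 subset of both libraries and Il34 lowest in the Wif1 Alpl Hs3st5 and Kit subsets.

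Compared within the 8 subsets of at least 50 cells in each library, Il7 was lower in old cells in 8 of 8 (6 with an interval below 0), from log2 −0.70 to −0.05. Il15 was lower in 8 of 8 (6 with an interval below 0), from −0.93 to −0.17. Il34 was higher in old cells in 5 and lower in 3, and Csf1 higher in 3 and lower in 5. In the Fgf13 Rspo3 subset Il7 was at 250 and 236 CPM (−0.08, −0.19 to 0.02) and in the C3 Saa3 subset at 84.6 and 81.7 CPM (−0.05, −0.56 to 0.51). The gap was smallest in value within these. The C3 Saa3 interval rests on 31 adult UMIs and is too wide to rank that subset. At the stricter highest 5% of the score Il7 was lower in 5 of 6 subsets, with a ratio of 0.05 in the Fgf13 Rspo3 subset, and Il15 in 6 of 6. In CAR-like cells of none of the 9 subsets (7220 adult, 5651 old), Il7 was at 202 and 136 CPM (−0.58) and Il15 at 117 and 77.1 CPM (−0.61). Il34 was almost level in these cells, at 221 and 216 CPM (−0.03, −0.07 to 0.01), and Csf1 was at 420 and 384 CPM (−0.13). Outside the subsets of the stricter cut, Il34 was at 208 and 222 CPM (0.09, 0.06 to 0.13). Subsets share cells, so these counts are not of independent values.

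Among the receptors of these cytokines, Csf1r was at 36.1 and 42.7 CPM in CAR-like cells, a class that is not of the macrophage lineage, with macrophage markers summing to 14.4 and 7.72 CPM there. Ptprz1, a receptor phosphatase that also binds interleukin 34, had 88.4 CPM in adult osteolineage-like cells and 543 CPM in old ones, and is among the leading genes of cluster 15. Sdc1, which encodes syndecan-1, another protein known to bind interleukin 34, was at 81.3 and 84.1 CPM in CAR-like cells and 149 CPM in old plasma cell-like cells. Il15ra, which presents interleukin 15 to neighbouring cells, was at 18.4 and 49.0 CPM in pericyte-like and 14.3 and 22.4 CPM in endothelial-like cells. Il2rg, the common gamma chain used by interleukins 7 and 15, was at 55.0 and 53.3 CPM in endothelial-like cells. Il7r, Il2rb and Flt3 stayed under 20 CPM in every class of at least 50 cells.

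Of 9 receptor genes, 1 (Sdc1) met the minimum in CAR-like cells and it differed less than 2-fold (log2 0.05). Of 21 other niche cytokine genes, 7 met it: 2 were higher and 5 lower in old CAR-like cells, with 1 past 2-fold upward and 2 downward, and a median of −0.86 against 0.01 for all genes. Of all 4181 genes tested there, 2.75% were past 2-fold upward and 1.65% downward. Ccl19, a chemokine for T cells and dendritic cells, was at 114 and 238 CPM. Tnfsf11 (RANKL, the osteoclast factor that acts beside Csf1) was at 824 and 194 CPM, and Igf1 at 927 and 328 CPM. Below the minimum, Tnfsf13b, which encodes the B cell survival factor BAFF, had 647 UMIs in adult and 3750 UMIs in old CAR-like cells (5.67 and 33.4 CPM, log2 2.56), and Il6 had 888 and 226 UMIs (7.79 and 2.02 CPM).

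Over the 16 class-by-library levels, the genes most like Il7 included Dpep1, Igfbp5, Egfr and Foxp2 (Pearson r of log2(CPM + 10) from 0.985 to 0.978). Those most like Csf1 were Insig2, Ghr, Fzd5, Pdlim4 and Fgfr2 (0.976 to 0.968), and those most like Il34 were Rarres2, Heyl, Klhl29, Pawr and Gsta4 (0.977 to 0.949). Il15 had looser company: Ifit1, Sh2d4b, Tmbim6, Xkr6 and H2-T22 (0.874 to 0.864). These values describe 16 levels that come from 2 libraries and share each library's free RNA and depth, and they are not tests.

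**Figure D5:**
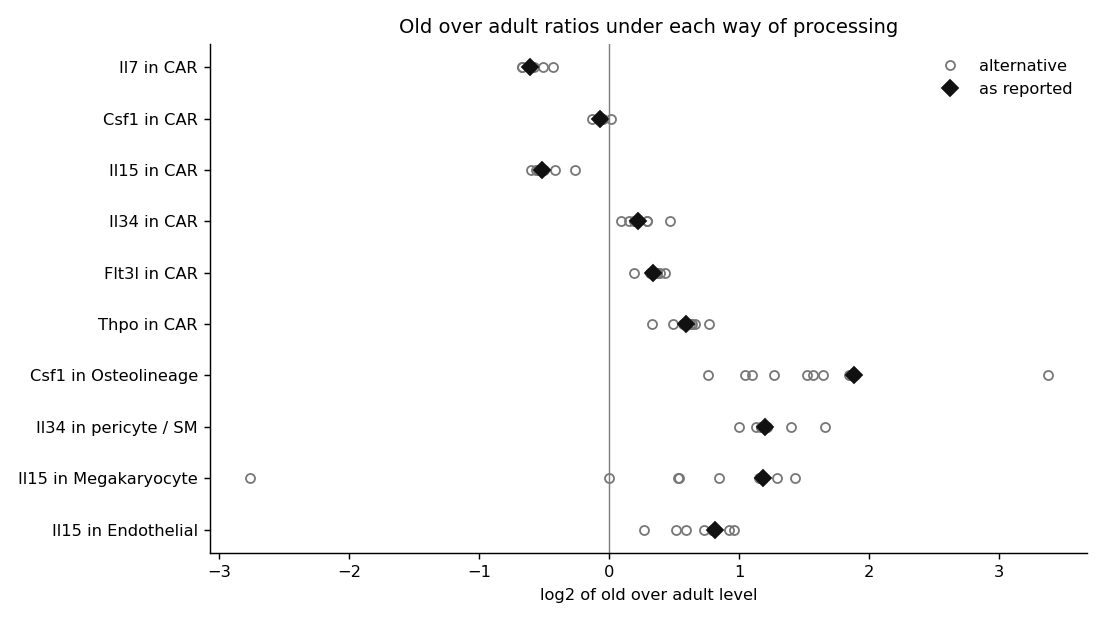
log2 of old over adult level for each gene in CAR-like cells and for 4 pairs of a gene and another class, as reported (diamonds) and under each alternative way of processing (circles). Il7 and Il15 in CAR-like cells stay below 0 and Il34 above 0 under every alternative that gave a value, whereas Il15 in megakaryocyte-like cells runs from −2.76 to 1.43.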

How the data were processed

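Each library was deposited by the authors as unnormalised UMI counts (genes by barcodes). Per the submitters' processing notes the deposited counts come from Cell Ranger on GRCm39, and the file headers give version 7.0.1. The annotation release and strand setting are not given there. Barcodes with under 500 genes or over 10% mitochondrial UMIs were left out, which kept 22403 of 25635 adult and 18975 of 22298 old barcodes (208637421 and 229917243 UMIs before filtering).

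Each cell was scored per class by the mean over its markers of log2(UMIs per 10000 + 1). It passed a gate at a score of 2.8 (CAR, osteolineage), 4.0 (chondrocyte), 1.6 (other stroma) or 0.6 (blood), with at least 3 markers detected and no more missing than detected. Plasma cell outranked B lineage, any blood lineage outranked stem cell, and chondrocyte outranked CAR and osteolineage. Cells past more than 1 gate (664 adult, 327 old) or none (1836, 1769) were set apart, and no doublet caller was run. Within 0.2 of the CAR gate lay 1422 adult and 905 old cells. The gates were set after seeing the scores. The members and gene lists were chosen with earlier results of these data known.

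UMIs were summed per class of at least 50 cells. Intervals are exact Poisson (levels), Clopper-Pearson (shares) and conditional binomial (ratios), at 95%, and cover counting error only. Thinning drew 4000 UMIs per cell without replacement. Subsets needed 3 marker UMIs. All 6 members are named; receptors are named at 20 CPM in any class, other cytokines from 50 UMIs in CAR-like cells, and 5 most-like genes per member that reached 20 CPM. A receptor and a most-like gene that the rule names are not reported here. Gate and ratio code was tested on simulated data. Python 3.11.15, numpy 2.4.6, scipy 1.17.1, scanpy 1.11.5 and leidenalg 0.10.2 were used. The alternatives were clustering in place of gates, stricter gates and subset cuts, other cell filters, other totals, free RNA subtraction and centring by gene length. Gene lengths and overlaps come from GENCODE M21, which is on GRCm38, so gene positions are not given on the files' build.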

Additional observations from a re-analysis of the deposited data

Results flagged for a closer look

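In each of these results the counting intervals of the old over adult log2 ratio lie on opposite sides of 0 in CAR-like cells and in another class. Whether the ratios differ between classes was not tested, since each class has 1 library per age. Csf1 was at −0.07 in CAR-like cells, at 0.53 in cells past both the CAR and the osteolineage gate and at 1.88 in osteolineage-like cells. Il15 was at −0.52 in CAR-like cells, at 0.81 in endothelial-like cells and at 1.18 in megakaryocyte-like cells, where 10 deep old cells carried 67.9% of the old UMIs.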

How the results depend on the processing

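No paired analysis was possible because each age has 1 library. The ratios kept their direction under every alternative that gave a value, except Csf1 in CAR-like cells (0.01 with cells past both gates) and Il15 in megakaryocyte-like cells, which was −2.76 in cells of 4000 to 12000 UMIs (21 adult and 46 old cells) and 0.00 without the deepest 10% of cells. The cause was not tested. With clusters in place of gates the log2 ratios in CAR-like cells were −0.09 for Csf1, −0.60 for Il15 and 0.09 for Il34, and elsewhere 0.76 for Csf1 in osteolineage-like, 0.53 for Il15 in megakaryocyte-like and 0.27 for Il15 in endothelial-like cells. Centring by gene length gave −0.67 for Il7, −0.13 for Csf1, −0.26 for Il15 and 0.47 for Il34 in CAR-like cells, 1.57 for Csf1 in osteolineage-like and 1.66 for Il34 in pericyte-like cells. Subtracting the megakaryocyte-like level gave −0.43 for Il7, −0.05 for Csf1, 0.29 for Il34, 0.19 for Flt3l and 3.37 for Csf1 in osteolineage-like cells, and could give no value for Il15 in CAR-like or endothelial-like cells or for Thpo. Weighting cells alike gave −0.56 for Il15 in CAR-like, 1.52 for Csf1 in osteolineage-like, 0.54 for Il15 in megakaryocyte-like and 0.51 for Il15 in endothelial-like cells. The stricter gate gave 1.64 for Csf1 in osteolineage-like cells. Without the deepest 10% of cells Il34 in CAR-like cells was at 0.19 and Csf1 in osteolineage-like cells at 1.04. Alternatives added after seeing the data were leaving out shared barcodes, which moved no ratio past its interval, counting cells past both gates (−0.51 for Il7, −0.42 for Il15, 0.29 for Il34, and 1.27 for Csf1 in osteolineage-like cells) and the depth window of 4000 to 12000 UMIs (−0.67 for Il7, 0.15 for Il34, and 1.10 for Csf1 in osteolineage-like cells). Thinning moved the log2 of old over adult share in CAR-like cells to −0.51 for Il7, −0.09 for Csf1 and −0.49 for Il15. The stricter subset cut gave −1.0 for Il7 in old C3 Saa3 cells and −1.23 and −1.53 for Il34 in adult and old Wif1 Alpl Hs3st5 cells, and 51 of the 53 other subset values kept their direction. Flt3l and Thpo are limited by depth.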

Other observations

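Clusters drawn without the gates show the same 4 genes from another side. Of the 11 clusters named CAR-like, the 3 that hold most adult cells contain 58 old ones, and the 6 that hold most old cells contain 120 adult ones. Il7 ranged from 184 to 227 CPM over the 3 adult clusters (0, 3 and 5) and from 78.4 to 191 CPM over the 6 old ones (1, 2, 7, 9, 12 and 13). The lowest was cluster 2, led by C3, Saa3 and Hdac9, and the old clusters 9 (led by Kcnk2 and Col8a1, 185 CPM) and 12 (led by Lrrtm4 and Kit, 191 CPM) overlapped the lowest adult one, cluster 3 (184 CPM, 179 to 189), within counting error. Il15 ranged from 101 to 167 CPM over the adult and from 36.7 to 114 CPM over the old clusters. Its highest levels were in clusters 5 (adult) and 7 (old), and its lowest old level was in cluster 13, from 61 UMIs. Il34 ran from 124 to 221 CPM and from 109 to 290 CPM, highest in old cluster 1, led by Grm7, Tenm2 and Efemp1. Csf1 ran from 339 to 452 CPM and from 252 to 493 CPM, lowest in clusters 5 (adult) and 7 (old). The lowest adult Il34 level was in cluster 5 as well. Clusters 5, 7 and 13 had far fewer UMIs per cell than the other main clusters, and the part of depth in these ranges was not tested.

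Rpl13a, the gene beside Flt3l that the readthrough transcript Gm45713 also spans, was listed at 69.6 and 67.4 CPM in CAR-like cells, while the ribosomal protein gene Rpl13 was at 1554 and 1434 CPM. Gm45713 itself had 30 and 12 UMIs there.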
